A study of Mus musculus with 6 samples.

Results

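Red pulp macrophages of the spleen take up aged red blood cells, break down their hemoglobin and return the iron to the circulation. The work is divided among a transcription factor that such cells need (Spic), surface receptors (Vcam1, Mrc1, Sirpa), the enzyme that opens the heme ring (Hmox1) and proteins that move or sense iron (Slc40a1, Slc11a1, Hfe). These 8 genes were followed here in RNA of splenic B cells from mice with a defective Btk, a cytoplasmic tyrosine kinase downstream of the B cell antigen receptor. All probe sets annotated to 1 of the 8 symbols alone were taken. They came to 11 of 12422 probe sets and to 7 of the 8 genes, since no probe set carried the symbol Slc40a1.

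Whole splenic B cells had been prepared from adult mice of 3 groups, with 2 arrays each. The Btk KO group carried a Btk knockout from SW129 mice, crossed to CBA for 9 generations. The Xid group is the CBA/N strain, whose Btk has the substitution R28C. The CBA group was wild type. A first run of 3 arrays, 1 per group, was followed by a second run with RNA from other mice. The labels do not say whether each RNA came from 1 animal or several, nor how the B cells were purified, and both mutant lines can differ from CBA at loci other than Btk.

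Values are scaled intensities of Affymetrix MG_U74Av2 arrays, whose medians ranged from 32.5 to 37.6. The number of arrays, 2 per group, limits the precision. One array differed in RNA quality. On the Btk KO array of run 1, the Gapdh controls had a 3' to 5' signal ratio of 10.4, against 0.76 to 1.61 on the others, and it alone was hybridised on its day. Btk read 276.1 and 173.6 in Btk KO mice, 841.0 and 643.9 in Xid mice and 874.1 and 749.8 in CBA mice on its kept probe set. The labels do not place these probes relative to the deletion. The B cell markers of the label were bright, with a summed intensity over 7 genes of 13196.1 to 14442.7 in Btk KO, 15024.1 to 20774.5 in Xid and 19530.0 to 20020.3 in CBA. In such bulk RNA, fewer cells of a type and less RNA per cell cannot be told apart.

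Sequences before the start sites of 4 of the 8 genes were in the promoter table of RefSeq (build GRCm38.p6), and 3 are shown: Spic as the transcription factor, and Mrc1 and Hfe as the genes with the largest differences from CBA in Btk KO and in Xid. Each is the 250 bases before the gene's start, 5′ to 3′ on the gene's strand. Capitals mark the letters GAGGAA, the core bound by the PU.1 and Spi-C family, or TGACNNNGC, the core of the antioxidant element read by Nrf2 and Bach1, on either strand; no such matches overlapped. Spic lies at chr10:88683024-88683273 on the minus strand, Mrc1 at chr2:14229164-14229413 on the plus strand and Hfe at chr13:23710855-23711104 on the minus strand.
Spic: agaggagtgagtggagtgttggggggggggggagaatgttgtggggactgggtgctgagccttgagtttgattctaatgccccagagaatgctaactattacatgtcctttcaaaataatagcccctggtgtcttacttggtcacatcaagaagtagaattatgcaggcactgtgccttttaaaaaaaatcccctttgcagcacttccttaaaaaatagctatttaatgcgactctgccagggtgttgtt
Mrc1: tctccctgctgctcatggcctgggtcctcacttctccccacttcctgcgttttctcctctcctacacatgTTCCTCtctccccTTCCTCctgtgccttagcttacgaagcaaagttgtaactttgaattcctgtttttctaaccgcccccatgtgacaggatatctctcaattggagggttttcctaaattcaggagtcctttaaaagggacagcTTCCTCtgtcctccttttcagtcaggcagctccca
Hfe: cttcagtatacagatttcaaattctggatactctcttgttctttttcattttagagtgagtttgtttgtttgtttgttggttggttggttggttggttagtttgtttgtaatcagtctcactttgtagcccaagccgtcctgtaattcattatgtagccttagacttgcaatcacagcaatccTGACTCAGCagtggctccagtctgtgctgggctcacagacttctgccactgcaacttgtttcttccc

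The Mrc1 window held the GAGGAA core 3 times, beginning 180, 167 and 35 bases before the start, and the Slc11a1 window held it once. Of all 32851 windows of this length in the table, 23.3% held at least 1. The Hfe window held 1 antioxidant core, beginning 67 bases before the start, and 10.2% of all windows had one. The Spic window held neither. A match describes letters and does not show binding.

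On the brightest probe set of each, all 7 measured genes were highest in Btk KO, intermediate in Xid and lowest in CBA by their group means. The Btk KO means were from 2.70-fold (Slc11a1) to 7.04-fold (Mrc1) the CBA mean. The Xid means were from 1.78-fold (Slc11a1) to 3.73-fold (Hfe). Every one of the 11 probe sets of these genes passed the filter on dim values, and the CBA mean of each lay above the filter level of 19.8. For 5 genes each Btk KO array lay above each Xid array and each Xid array above each CBA array. The exceptions were Hfe and Slc11a1, where Btk KO and Xid arrays overlapped. Counted by probe sets, 6 of the 11 showed this order, against 3.19% of all 7453 kept probe sets. The dimmest Sirpa probe set had another order of means, with 34.6 in Btk KO, 40.8 in Xid and 37.0 in CBA.

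**Figure D1:**
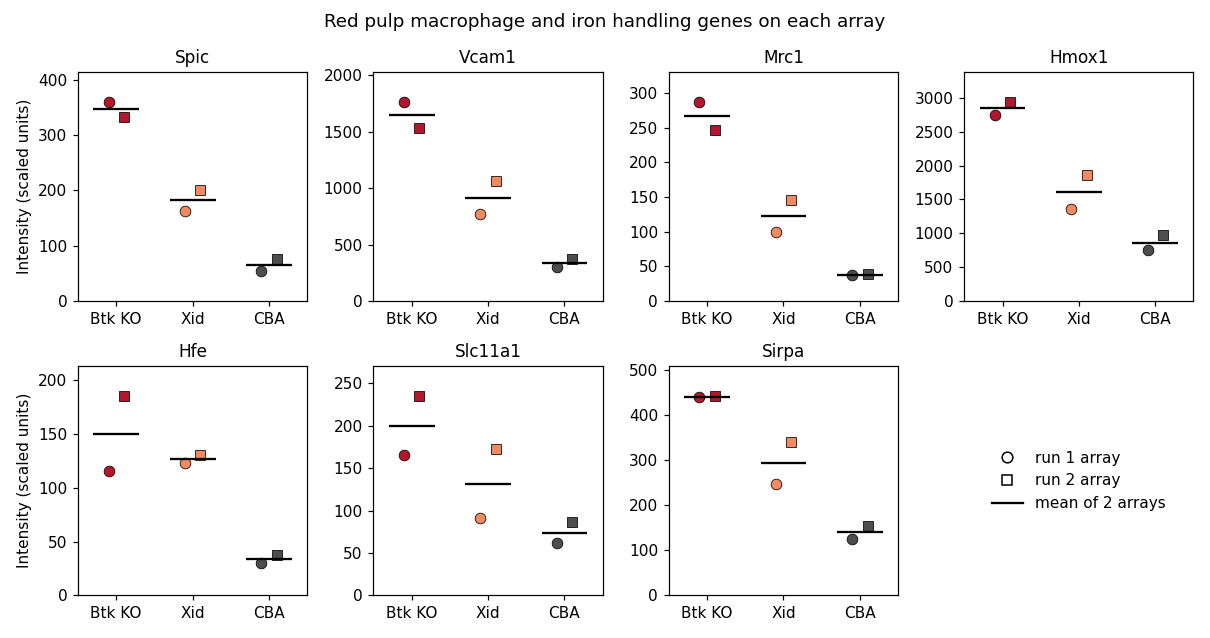
Intensity (scaled units, axes from 0) of the 7 measured genes on each array, with Btk KO, Xid and CBA from left to right, circles for run 1, squares for run 2 and a line at the mean of 2 arrays. Both CBA arrays lie lowest in every panel, and Btk KO and Xid overlap for Hfe and Slc11a1.

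The transcription factor comes first. Spic encodes Spi-C, a relative of PU.1 that red pulp macrophages of the mouse need to form, and it was first described in B cells and macrophages. It read 360.0 and 332.2 in Btk KO, 162.8 and 201.4 in Xid and 54.5 and 75.7 in CBA. The 3 groups did not overlap. The level in Btk KO, 346 ± 19.7 (SD, n = 2), was 5.32 times that in CBA, 65.1 ± 15.0 (n = 2), and Spic rose by 2.32 ± 0.23 on the log2 scale (SE; limma adjusted p = 0.025). In Xid, at 182 ± 27.3, the difference from CBA was 1.41 ± 0.23, which passed with the run as a block in the model (limma adjusted p = 0.034) and not without it (0.17). Here and below, the SE of a difference is from the fit without the block unless stated.

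Among the surface receptors, Vcam1 encodes the adhesion molecule that binds integrin alpha 4 beta 1, found on red pulp macrophages and on activated endothelium. Its first probe set read 1765.9 and 1532.0 in Btk KO, 770.5 and 1064.4 in Xid and 304.7 and 369.9 in CBA. All Btk KO arrays lay above all Xid arrays, and those above CBA. Vcam1 rose in Btk KO by 2.27 ± 0.23 against CBA (limma adjusted p = 0.025). The Xid difference from CBA, 1.42 ± 0.23, had a limma adjusted p of 0.034 with the run block and 0.17 without it.

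Of the further Vcam1 probe sets, the third read 139.2 and 119.7 in Btk KO, 66.0 and 88.1 in Xid and 18.9 and 25.6 in CBA, and it kept the same order of groups. It rose in Btk KO by 2.27 ± 0.27 (limma adjusted p = 0.040, and 0.093 without the Btk KO array of run 1). The second, of a type whose probes can match related transcripts, read 109.8 and 263.6 in Btk KO, 76.9 and 178.7 in Xid and 63.8 and 87.0 in CBA. Here the runs differed as well: the run 2 array was 2.40 times the run 1 array in Btk KO and 2.32 times in Xid, and the difference of Btk KO from CBA was 1.13 ± 0.49 (limma adjusted p = 0.57, and 0.069 with the run block).

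Mrc1, the mannose receptor of macrophages and of sinus endothelium, read 287.2 and 246.5 in Btk KO, 99.3 and 145.6 in Xid and 37.4 and 38.4 in CBA. The CBA arrays differed 1.03-fold from each other and the Xid arrays 1.47-fold. Mrc1 rose in Btk KO by 2.63 ± 0.25 (limma adjusted p = 0.025), the largest difference among the 7 genes. In Xid the difference from CBA was 1.53 ± 0.25, with a limma adjusted p of 0.17 and, with the run block, 0.045.

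Sirpa encodes an inhibitory receptor of myeloid cells that binds CD47 on the cell to be taken up. Its first probe set read 439.0 and 441.7 in Btk KO, 246.2 and 338.9 in Xid and 124.6 and 154.7 in CBA, without overlap. The difference of Btk KO from CBA was 1.62 ± 0.23 (limma adjusted p = 0.052, and 0.0074 with the run block) and that of Xid from CBA 1.03 ± 0.23 (0.47, and 0.083 with the block). The other Sirpa probe sets did not separate the groups. The second read 30.3 and 201.9 in Btk KO, 32.3 and 147.9 in Xid and 20.9 and 125.2 in CBA, so that run 2 was 4.58 to 6.66 times run 1 within every group. Its group means kept the order, at 116.1 in Btk KO, 90.1 in Xid and 73.05 in CBA. Within run 1 and run 2, Btk KO differed from CBA by 0.43 and 0.66 and Xid by 0.51 and 0.23. The Btk KO difference did not pass (limma adjusted p = 0.94, and 0.32 with the run block). The third read 4.5 and 64.7 in Btk KO, 22.6 and 59.0 in Xid and 29.0 and 45.0 in CBA, with the lowest and the highest value both in Btk KO, and the within-run differences of Btk KO from CBA had opposite signs (-1.74 in run 1 and 0.47 in run 2). Statements on Sirpa below use the first probe set.

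**Figure D2:**
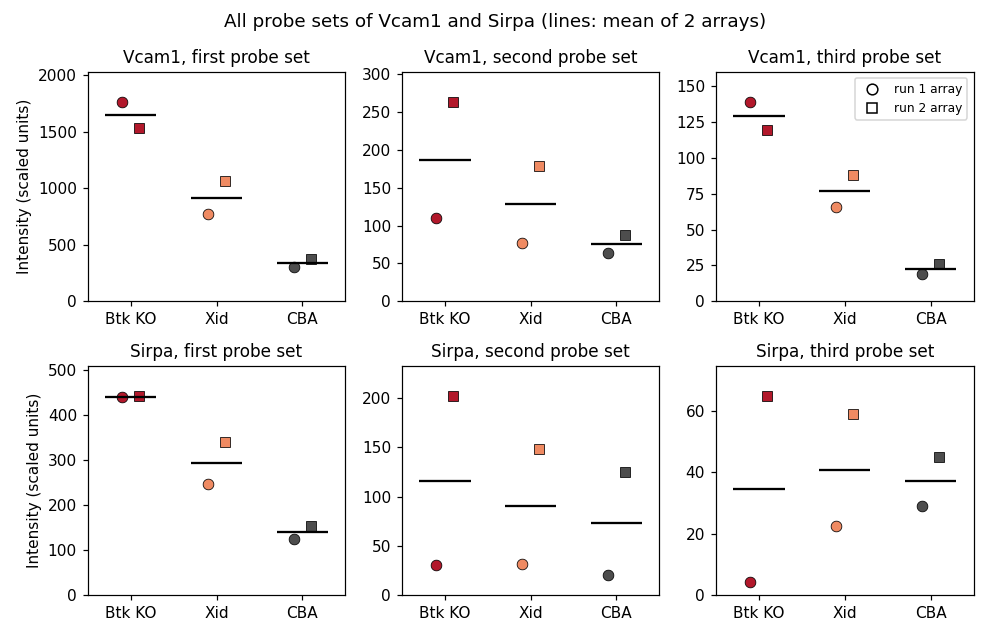
Intensity (scaled units, axes from 0) of all 3 probe sets of Vcam1 and all 3 of Sirpa on each array, with Btk KO, Xid and CBA from left to right and a line at the mean of 2 arrays. The first Vcam1 set, the third Vcam1 set and the first Sirpa set separate the groups, and in the second Sirpa set all run 2 arrays (squares, 125.2 to 201.9) lie above all run 1 arrays (circles, 20.9 to 32.3).

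Hmox1 encodes heme oxygenase, which splits heme into biliverdin, carbon monoxide and iron and is induced by heme itself. It read 2751.8 and 2939.7 in Btk KO, 1355.0 and 1866.4 in Xid and 750.1 and 978.4 in CBA. The groups did not overlap, and the Btk KO mean of 2846 ± 133 was 3.29 times the CBA mean of 864 ± 161 (SD, n = 2 each). The difference of Btk KO from CBA was 1.72 ± 0.25, with a limma adjusted p of 0.052 and, with the run block, 0.0063. For Xid it was 0.89 ± 0.25 and did not pass in either fit (limma adjusted p = 0.58, and 0.13 with the block).

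Hfe encodes a relative of MHC class I proteins that pairs with beta-2 microglobulin, binds the transferrin receptor and takes part in iron sensing. It read 115.6 and 185.3 in Btk KO, 123.0 and 130.4 in Xid and 30.0 and 38.0 in CBA. Both mutant groups lay above CBA, and the Btk KO arrays lay on either side of the Xid arrays. The difference from CBA was 1.94 ± 0.28 in Btk KO (limma adjusted p = 0.052, and 0.0088 with the run block) and 1.74 ± 0.28 in Xid (0.17, and 0.026 with the block). Hfe thus had the largest Xid difference of the 7 genes, while 3 genes had a larger one in Btk KO.

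Slc11a1 encodes the Nramp transporter, which moves iron and manganese out of the phagosome of macrophages. It read 165.3 and 234.9 in Btk KO, 91.4 and 172.0 in Xid and 61.6 and 86.6 in CBA. The Btk KO array of run 1 lay just below the Xid array of run 2, and within each run Btk KO was above Xid and Xid above CBA. Its differences from CBA, 1.36 ± 0.35 in Btk KO and 0.73 ± 0.35 in Xid, were the smallest of the 7. The Btk KO difference passed with the run block (SE 0.20 in that fit, limma adjusted p = 0.018) and not without it (0.25). With the block and without the Btk KO array of run 1 it did not pass (limma adjusted p = 0.072).

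Counted together in Btk KO against CBA, 3 of the 7 genes rose (Spic, Vcam1 and Mrc1), where limma called 0.161% of all kept probe sets higher. With the run block all 7 rose, against 1.42% of all kept probe sets. At an unadjusted p under 0.05 without the block all 7 passed too, as did 8.83% of kept probe sets in either direction. All 7 had both Btk KO arrays above both CBA arrays, as had 20% of kept probe sets. The median log2 difference was 1.94 over the 7 genes and 0.01 over all kept probe sets, and within the runs it was 1.87 and 2.03. Without the Btk KO array of run 1, whose Gapdh ratio was 10.4, the median was 2.17 and 4 genes passed (0.121% of kept probe sets were called higher), or 6 with the block (0.805%), all but Slc11a1. Without the Btk KO array of run 2 the count was 6, in a fit that called 1.95% of kept probe sets in either direction, against 0.174% with all arrays. It was 0 without either Xid array or either CBA array, where 0 of all kept probe sets were called and the members' median was 1.79 to 2.08.

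**Figure D3:**
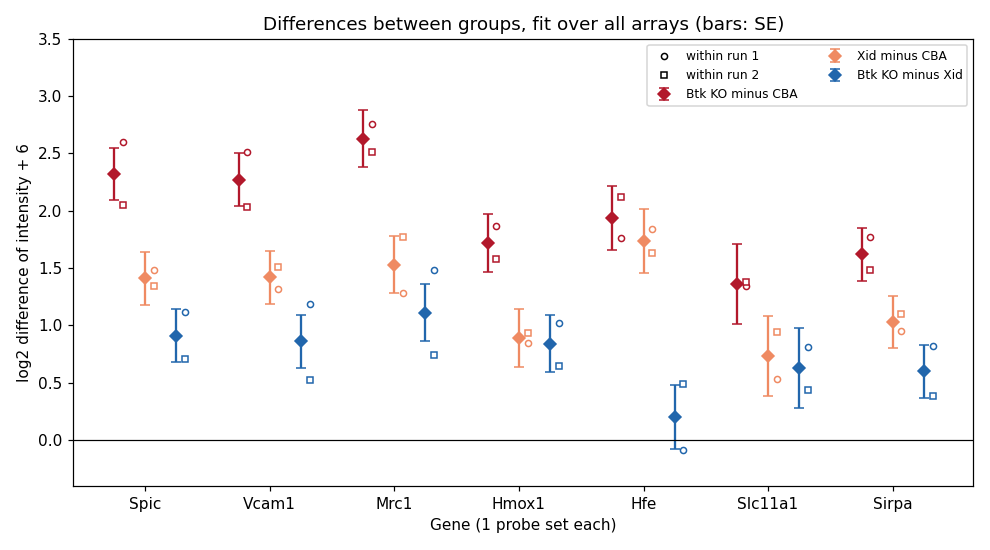
The log2 difference of intensity + 6 for the 7 genes (diamonds, with SE bars from the limma fit over 6 arrays) in Btk KO minus CBA, Xid minus CBA and Btk KO minus Xid, with small open symbols for the differences within run 1 and run 2. Every difference from CBA is positive in both runs, and the single negative value is Hfe in Btk KO minus Xid within run 1 (-0.09).

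In Xid against CBA, limma without the run block called 0 of the 7 genes, and it called 0.0134% of all kept probe sets higher. At an unadjusted p under 0.05 there were 6, against 4.43% of kept probe sets. With the run block 4 passed (Spic, Vcam1, Mrc1 and Hfe), where 0.362% of kept probe sets were called higher. All 7 had both Xid arrays above both CBA arrays, as had 17% of kept probe sets. The median was 1.41 over the 7 genes and 0.01 over all kept probe sets, at 1.28 within run 1 and 1.34 within run 2. When the Btk KO array with the Gapdh ratio of 10.4 was left out of the blocked model, 5 passed, Sirpa being the fifth (limma adjusted p = 0.024), against 0.617% of kept probe sets.

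Set against CBA together, the mutant groups had a median difference of 1.84 over the 7 genes. Spic, Vcam1 and Mrc1 rose (limma adjusted p = 0.025 for each), and 7 passed with the run block. The count of 3 (11 of 7453 probe sets in all) was 1 with median centring (7 of 7453). Without the intensity trend it was 0, where 0 of all kept probe sets were called. Leaving out 1 array gave differences of 1.65 to 2.08 for Spic, 1.71 to 1.98 for Vcam1 and 1.95 to 2.21 for Mrc1. Counts for those fits, with 1 array in a group, are not given here. The background was 0.0939% of kept probe sets called higher without the block and 1.29% with it. These comparisons share the CBA arrays, so they are not separate evidence.

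Btk KO was also set against Xid directly. The 7 differences were all positive, from 0.20 ± 0.28 (Hfe) to 1.11 ± 0.25 (Mrc1), with a median of 0.84, at 1.02 within run 1 and 0.52 within run 2. Limma called 0 of them with or without the run block, where it called 0.0268% and 0.107% of all kept probe sets higher. At an unadjusted p under 0.05 there were 5 genes without the block and 6 with it, against 3.61% and 7.31% of kept probe sets. Both Btk KO arrays lay above both Xid arrays for 5 genes (Spic, Vcam1, Mrc1, Hmox1 and Sirpa), as for 14.2% of kept probe sets. The neighbouring levels of Btk KO and Xid are therefore not shown to differ for any of the 7, and they are not shown to be equal either.

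Summed levels of other macrophage genes had the same order of groups within each run, while Btk KO and Xid arrays overlapped across runs. Of 21 listed macrophage markers, 16 passed the filter, and their summed intensity was 6319.0 and 10415.1 in Btk KO, 5221.6 and 8101.1 in Xid and 2746.7 and 4000.5 in CBA. Limma without the block called 0 of them in either mutant against CBA. At an unadjusted p under 0.05 there were 11 in Btk KO and 8 in Xid, against 8.83% and 4.43% of all kept probe sets. With the run block 8 rose in Btk KO and 3 in Xid, against 1.42% and 0.362% of kept probe sets called higher. The median differences from CBA were 1.22 in Btk KO and 0.90 in Xid, and 1.58 in Btk KO without its array of run 1. The 4 with the smallest p in each comparison were the same: the complement chains C1qb and C1qc, the growth factor receptor Csf1r and the prostaglandin-degrading enzyme Hpgd.

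Csf1r, the receptor macrophages need to survive, averaged 834 ± 118 in Btk KO, 687 ± 192 in Xid and 234 ± 121 in CBA (SD, n = 2 each). Its differences from CBA were 1.89 and 1.60 (limma adjusted p = 0.0076 and 0.026 with the run block, and 0.14 and 0.47 without it). C1qb averaged 853 ± 286 in Btk KO, 571 ± 228 in Xid and 205 ± 72.0 in CBA, and C1qc averaged 1797 ± 344 in Btk KO, 1240 ± 285 in Xid and 474 ± 258 in CBA. Hpgd averaged 82.5 ± 8.27 in Btk KO, 55.7 ± 17.5 in Xid and 23.7 ± 5.66 in CBA, and it passed with the block in Btk KO (limma adjusted p = 0.037). Not every marker followed, and those given next were named after their values were seen. Cd5l, a secreted macrophage protein, averaged 77.0 ± 7.78 in Btk KO, 36.7 ± 4.81 in Xid and 38.6 ± 0.99 in CBA. Lgals3 averaged 98.5 ± 25.1 in Btk KO, 66.6 ± 24.3 in Xid and 65.6 ± 10.2 in CBA. C1qa read 294.5 and 1975.6 in Btk KO, 841.4 and 1388.9 in Xid and 339.0 and 606.6 in CBA. The value of 294.5 is from the Btk KO array of run 1, whose Gapdh ratio was 10.4. In run 2 C1qa was highest in Btk KO and lowest in CBA, and both Xid arrays lay above both CBA arrays. The marginal zone macrophage receptors Marco and Siglec1 were dim, at 9.9 or less on every array.

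The wider iron machinery was described from a list of 22 genes for iron transport and storage, of which 9 passed the filter. Their median difference from CBA was 0.05 in Btk KO and 0.02 in Xid, and limma called 0 in either mutant with or without the run block. At an unadjusted p under 0.05 without it there were 1 in Btk KO and 0 in Xid, against 8.83% and 4.43% of all kept probe sets. The ferritin heavy chain gene Fth1, which encodes the iron store of the cell, averaged 2264 ± 644 in Btk KO, 2267 ± 308 in Xid and 1946 ± 258 in CBA. Tfrc, the transferrin receptor that imports iron and that Hfe binds, averaged 384 ± 154 in Btk KO, 248 ± 59.8 in Xid and 357 ± 48.2 in CBA. Neither separated all arrays of a mutant from CBA, except Tfrc in Xid, where both arrays (289.9 and 205.3) lay below those of CBA (323.1 and 391.2).

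Ncoa4, the receptor that delivers ferritin for breakdown, had the smallest p of this list in Btk KO. It averaged 308 ± 18.8 in Btk KO, 202 ± 33.7 in Xid and 185 ± 49.5 in CBA, a difference of 0.74 ± 0.24 from CBA in Btk KO (limma adjusted p = 0.40, and 0.17 with the run block). The RNA-binding iron chaperone gene Pcbp1, the iron sensors Tfr2 and Ireb2 and the metal importer Slc11a2 differed from CBA by -0.27, 0.38, -0.25 and 0.01 in Btk KO and by 0.02, 0.33, -0.18 and -0.23 in Xid.

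Genes of heme and hemoglobin disposal, with targets of the factor Nrf2, were taken from a list of 16, of which 11 passed the filter. The median difference from CBA was 0.24 in Btk KO and 0.07 in Xid. Without the run block limma called 0 in either. At an unadjusted p under 0.05 there were 2 in Btk KO and 1 in Xid, against 8.83% and 4.43% of all kept probe sets. With the block 1 rose in Btk KO and 0 in Xid, against 1.42% and 0.362% of kept probe sets called higher. The gene that passed was Lrp1, a large scavenger receptor that takes up heme bound to hemopexin, at 269 ± 83.7 in Btk KO, 195 ± 62.9 in Xid and 96.2 ± 7.14 in CBA. Its difference was 1.40 ± 0.30 in Btk KO (limma adjusted p = 0.017 with the run block and 0.17 without it) and 0.94 ± 0.30 in Xid (0.15 and 0.78).

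Hp, for haptoglobin that binds free hemoglobin, averaged 94.5 ± 13.4 in Btk KO, 58.9 ± 9.90 in Xid and 43.0 ± 2.40 in CBA. Its difference in Btk KO was 1.03 ± 0.25 (limma adjusted p = 0.23, and 0.069 with the block). Hmox2, the constitutive heme oxygenase, averaged 81.0 ± 9.55 in Btk KO, 89.3 ± 18.7 in Xid and 73.3 ± 7.21 in CBA, a difference of 0.13 ± 0.25 in Btk KO against the 1.72 ± 0.25 of Hmox1. Bach1, the heme-sensing repressor of Hmox1 and Spic in the mouse, differed from CBA by 0.51 ± 0.41 in Btk KO and 0.55 ± 0.41 in Xid. Blvra, which reduces biliverdin, and the Nrf2 target Gclm differed by 0.53 and 0.61 in Btk KO and by -0.26 and 0.05 in Xid.

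**Figure D4:**
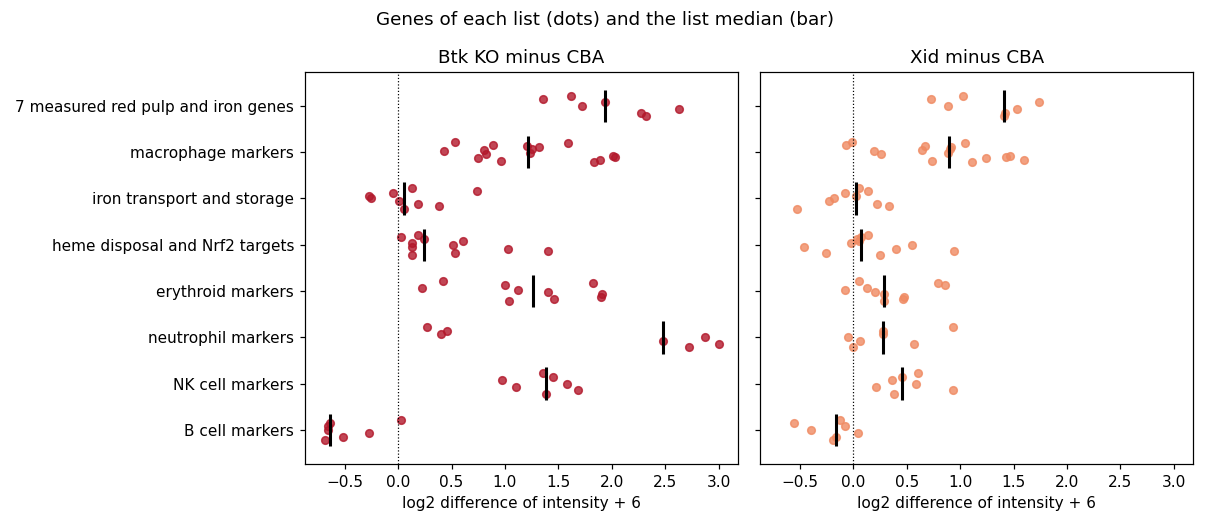
The log2 difference of intensity + 6 from CBA for the genes of 8 lists (dots, 1 kept probe set per gene) in Btk KO (left) and Xid (right), with a bar at each list's median. The 7 red pulp and iron genes lie from 1.36 to 2.63 in Btk KO and from 0.73 to 1.74 in Xid, while iron transport and storage genes lie around 0 (medians 0.05 and 0.02).

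Partners that bind these proteins were followed as well, 7 of 8 after the filter. Their median difference from CBA was 0.05 in Btk KO and 0.07 in Xid, and limma called 0 in either mutant without the run block. At an unadjusted p under 0.05 there was 1 in each, against 8.83% and 4.43% of all kept probe sets. With the run block 0 rose in Btk KO and 1 in Xid, against 1.42% and 0.362% of kept probe sets called higher. That gene was Cd47, whose product is the ligand of Sirpa. It read 916.7 and 627.1 in Btk KO, 1754.6 and 1396.1 in Xid and 784.7 and 505.2 in CBA, so that the Xid arrays lay above all others. Its Xid difference from CBA was 1.31 ± 0.29 (limma adjusted p = 0.023 with the block and 0.47 without it), and that of Btk KO was 0.27 ± 0.29. Btk KO differed from Xid by -1.04 ± 0.29, which did not pass (limma adjusted p = 0.97, and 0.10 with the block).

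Ptpn6, the phosphatase recruited by Sirpa and also by inhibitory receptors of B cells, averaged 720 ± 157 in Btk KO, 908 ± 65.8 in Xid and 1180 ± 3.25 in CBA. The Btk KO difference was -0.73 ± 0.22 and did not pass (limma adjusted p = 0.34, and 0.089 with the block). The chains of the Vcam1 receptor, Itga4 and Itgb1, averaged 49.0 ± 3.32 and 944 ± 157 in Btk KO, 45.0 ± 1.34 and 701 ± 187 in Xid and 42.8 ± 11.8 and 661 ± 153 in CBA. The Hfe partner B2m averaged 3383 ± 375 in Btk KO, 3686 ± 27.5 in Xid and 3705 ± 393 in CBA.

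Markers of further cell types also differed between the groups. In Btk KO against CBA the median was 2.48 over 7 neutrophil markers, 1.38 over 7 NK cell markers and 1.26 over 10 erythroid markers, and in Xid against CBA it was 0.28, 0.45 and 0.29. The neutrophil marker Ngp averaged 149.6 in Btk KO, 8.95 in Xid and 9.3 in CBA. Ngp thus passed the filter, at 19.8, only through Btk KO, and the neutrophil median includes it. The CBA means of the neutrophil genes Mpo and Elane and the erythroid gene Hemgn (16.2, 17.55 and 17.35) were also under that level. The erythroid median in Btk KO was 0.83 without the Btk KO array of run 1, and 1.67 and 0.74 within run 1 and run 2. The neutrophil markers Camp and S100a9 rose in Btk KO without the block (limma adjusted p = 0.028 and 0.041), where 0.161% of all kept probe sets were called higher. With the block 4 neutrophil markers (Ngp among them) and 4 NK cell markers rose, against 1.42% of kept probe sets. The neutrophil count of 2 was 0 without the intensity trend, where 0 of all kept probe sets were called. For erythroid markers limma called 0 in either fit. At an unadjusted p under 0.05 without the block there were 8 erythroid, 7 NK cell and 4 neutrophil markers in Btk KO, against 8.83% of all kept probe sets. Both Btk KO arrays lay above both CBA arrays for 9 erythroid, 7 NK cell and 5 neutrophil markers, as for 20% of kept probe sets. The summed intensity of the 10 erythroid markers was 22274.9 and 10868.0 in Btk KO, 9354.6 and 7941.0 in Xid and 5829.0 and 7804.5 in CBA. For neutrophil markers it was 862.8 and 1575.5 in Btk KO, 270.7 and 247.7 in Xid and 182.3 and 232.8 in CBA.

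Vcam1 and Mrc1 are also made by endothelium. Of 12 endothelial and stromal markers on the array, 5 passed the filter: the endothelial genes Pecam1, Kdr, Eng and Madcam1 and the fibroblast collagen gene Col1a1. Their summed intensity was 386.1 and 410.0 in Btk KO, 361.0 and 332.4 in Xid and 335.0 and 235.6 in CBA, with a median difference from CBA of 0.36 and 0.30. Col1a1 had the largest of these differences, 0.85 ± 0.26 in Btk KO and 0.72 ± 0.26 in Xid. Limma called 0 of the 5 in either mutant with or without the block. At an unadjusted p under 0.05 without it there were 2 in Btk KO and 1 in Xid, against 8.83% and 4.43% of all kept probe sets. Lyve1, a receptor of lymphatic and sinus endothelium, read at most 5.7 on any array. The dendritic cell markers, whose cells also carry Sirpa, numbered 4 with a median of 0.64 in Btk KO and 0.32 in Xid. The 3 kept monocyte markers had a median of 0.08 in Btk KO, at -0.59 within run 1, 0.74 within run 2 and 0.82 without the Btk KO array of run 1, and 0.00 in Xid. One of them, the chemokine receptor gene Ccr2, differed from CBA in Btk KO by 1.13 ± 0.65 without the run block (limma adjusted p = 0.71). It rose with the block (limma adjusted p = 0.029), where 1.42% of all kept probe sets were called higher. The 7 B cell markers had medians of -0.64 and -0.16, and the 4 T cell markers 0.44 and 0.12 (0.67 in Btk KO without its array of run 1). At an unadjusted p under 0.05 without the block there were 3 B cell and 0 T cell markers in Btk KO, against 8.83% of all kept probe sets. In Xid there were 0 of either, against 4.43%. The part of any of these cell types in the differences of the 7 genes was not tested.

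Across the 6 arrays the log2 values of the other 6 genes followed those of Spic with Pearson's r of 0.909 (Slc11a1) to 0.997 (Vcam1). The 5 further genes most like Spic were Dapk2 (r = 0.998), Snx17 (0.993), Itm2b (0.993), Sumo3 (0.991) and Igf1 (0.990). They followed its order with ranges of unequal width: Igf1 read 138.1 and 108.3 in Btk KO, 71.3 and 68.0 in Xid and 17.8 and 28.0 in CBA, whereas Snx17 read 68.7 and 67.6 in Btk KO, 63.6 and 64.6 in Xid and 54.5 and 57.8 in CBA. These 6 points share their groups and runs, and the genes were picked as the highest of all kept named genes, so r is a description.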

How the data were processed

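Total RNA from whole splenic B cells of 3 groups of mice had been hybridised to 6 Affymetrix arrays. The authors deposited 1 scaled intensity per probe set and array, and their 2% trimmed means were equal (100.06 on each array). The summary software is not given in the sources used here. Chip lot and hybridisation day came from the deposited header files. Of 12488 probe sets, 66 are controls and 10833 have 1 gene symbol, updated by gene number through a RefSeq table of GRCm38.p6. Slc39a1, once also a name of Slc40a1, has another gene number and was not used.

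Intensities were taken as log2(intensity + 6), 6 being the 20th percentile of all values, and 4969 probe sets under the 40th percentile of mean log2 value (an intensity of about 19.8) were left out. The 7453 kept were fitted with limma 3.58.1 in R 4.3.3 (group means, eBayes with an intensity trend, 3 residual degrees of freedom, two-sided, Benjamini-Hochberg over all kept probe sets, threshold 0.05). With the run as a block 2 residual degrees of freedom were left, and either model had fewer when an array was left out. A gene is represented by the brightest kept probe set, "first" in the text. Fold values compare mean intensities, and log2 differences are on the log2(intensity + 6) scale, which understates changes of dim genes. The fit was tested on simulated data.

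Replicate numbers pair the samples by run: the series' design text has 1 array per group in each run, each run used its own chip lot, and deviations from group means correlated between groups within a run (0.374 for Btk KO with CBA, 0.31 for Xid with CBA and 0.441 for Btk KO with Xid). The model with the run as a block is given where it changes a call. Unless stated, the SE of a difference is from the fit without the block, also beside a p from the blocked fit. The alternatives were the block, 2 other scalings, pseudocounts of 1 and 16, no filter and a stricter one, each array left out, no trend, a fit of the compared groups alone, the block without the Btk KO array of run 1, and all probe sets of a gene averaged. The genes, lists and tests were chosen with earlier results of these data known. Named genes are the 8 chosen ones, Btk, up to 4 genes per list with the smallest p in a comparison and the 5 most like Spic. B2m, C1qa, Cd5l, Lgals3, Pecam1 and the dim Marco, Siglec1 and Lyve1 fall outside this rule and were named after their values were seen. Figures were drawn with matplotlib 3.10.9.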

Additional observations from a re-analysis of the deposited data

How the results depend on the processing

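Differences of the 7 genes from CBA stayed positive under every alternative run. That of Sirpa in Btk KO, 1.62, was 0.51 with all probe sets of a gene averaged (limma adjusted p = 0.90). In Btk KO against CBA the number called, 3 (13 of 7453 probe sets in all), was 7 with the replicate block (166 of 7453). It was 6 with a filter at the 60th percentile (29 of 4969) and 5 with all probe sets of a gene averaged (23 of 6378). Without the intensity trend, or with only the groups compared, it was 0, where 0 of all kept probe sets were called. The median in Btk KO against CBA, 1.94, was 1.82 with median centring and 2.08 and 1.71 with pseudocounts of 1 and 16. Leaving out 1 array gave a median of 1.68 to 2.17. In Xid against CBA the number called, 0 (5 of 7453 probe sets in all), was 4 with the replicate block (36 of 7453). Its median, 1.41, was 1.33 with median centring, 1.29 with a pseudocount of 16 and 1.20 with probe sets averaged, and leaving out 1 array gave 1.18 to 1.56. For both mutants against CBA the number called, 3 (11 of 7453 probe sets in all), was 7 with the replicate block (144 of 7453) and 1 with median centring (7 of 7453). Without the trend it was 0, where 0 of all kept probe sets were called. The median for both mutants, 1.84, was 1.74 with median centring, 1.61 with a pseudocount of 16 and 1.54 with probe sets averaged. It was 1.70 with the block and without the Btk KO array of run 1, and 1.65 to 1.98 without 1 array. In Btk KO against Xid the number called was 0 and the median stayed within its spread under all alternatives, at 0.61 to 1.06 without 1 array; Hfe, 0.20 there, was -0.13 without the Btk KO array of run 2 and 0.53 without that of run 1. Median centring shifted the median of all kept probe sets to -0.10 in Btk KO and -0.07 in Xid against CBA. Where a count changed, the cause was not tested, beyond the fewer arrays or probe sets in the fit that some of these settings bring.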
